A study of Bos taurus with 6 samples.

Results

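Integrins and laminins are the receptors and the ligands by which an epithelial cell holds on to its basement membrane. The genes described here are all rows of the deposited table whose gene name is that of an integrin alpha subunit, an integrin beta subunit or a laminin chain, 36 of 24616 genes in all. They comprise 24 integrin and 12 laminin genes. ITGB3 and ITGAX were not analysed here. The RNA came from a mammary epithelial cell model of cattle (Bos taurus), in 6 RNA-seq libraries. Control cells (3 libraries) carry no named addition, and treated cells (3 libraries) had acetate and BHBA added and are titled NaAc & BHBA. The series presents the treated cells as its high milk fat condition, but the comparison made here is of cells with and without acetate and BHBA. Doses, exposure time, the animals behind the cells and any sodium-matched control were not given in the sources used here. No label ties the libraries to separate cultures, so each test measures the spread among these libraries, and that spread may be technical.

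An integrin is a pair of 1 alpha and 1 beta subunit that spans the cell membrane, and the alpha subunit largely sets which matrix protein is bound. A laminin is a trimer of 1 alpha, 1 beta and 1 gamma chain, and laminin trimers form the sheet that underlies epithelia. In the mammary gland, epithelial cells rest on this sheet, and adhesion to laminin is known from mouse cells to be needed for milk protein expression. ITGA6 paired with ITGB4 anchors basal epithelial cells through hemidesmosomes to the laminin that holds LAMA3 and LAMB3.

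Levels are given as FPKM, that is fragment counts corrected for library size and gene length, so genes can be compared per length. FPKM values carry no read counts, so the depth is unknown. Summed FPKM was 1134026 in control replicate 1 and lay between 787186 (treated replicate 1) and 936152 in the other 5 libraries. Epithelial markers were abundant. The luminal list summed to between 6489 and 10976 FPKM per library. Of its 9 tested genes 8 stood on the lower side and 1 on the higher, where 61.9% of all genes tested stood. CDH1 was lower without overlap, against 6.69% of all genes tested. The list's median log2 fold change, treated over control, was -0.08, or 0.02 without control replicate 1. The basal and myoepithelial list summed to between 11693 and 14653 FPKM in control and between 8811 and 10362 in treated libraries. Most of that sum was KRT5, at 8960 to 9385 FPKM in control and 6025 to 6827 in treated libraries. Of the 7 tested genes of the list, KRT14, KRT17 and CNN1 stood on the higher side, and KRT5, TAGLN, ACTA2 and MYLK on the lower. The median log2 fold change of this list was -0.35, or -0.18 without control replicate 1. CSN2, the beta-casein gene, and ESR1 were listed at 0 in all 6 libraries, and PRLR and LALBA of the luminal list reached at most 0.04 and 0.1 FPKM. CSN3, another casein gene of that list, stood at 13.0 to 19.1 FPKM, GATA3 at 5.14 to 9.08 and ELF5 at 2.80 to 4.47. TP63, a basal transcription factor, reached at most 0.88 FPKM. Endothelial, leukocyte and platelet lists summed to at most 6.84, 15.1 and 1.62 FPKM. The fibroblast list of 11 genes summed to between 498 and 550 FPKM in control and between 491 and 579 in treated libraries, of which VIM alone made 433 to 526. Of the 9 tested fibroblast genes 7 stood on the higher side, against 61.9% of all genes tested. THY1, DCN, LUM and COL6A3 were higher without overlap, against 13.0% of all genes tested. FAP, too low to test, was also higher without overlap. The median log2 fold change of the list, 0.23, was 0.01 without control replicate 1. THY1 stood at 2.54 to 6.39 FPKM in control and 14.0 to 18.6 in treated libraries. The part of these markers in the results below was not tested. In such bulk libraries, fewer cells of a type and less RNA per cell cannot be told apart.

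The most abundant gene of the set was ITGB4, the hemidesmosomal beta subunit. Of the 36 genes, 24 reached a mean of 1 FPKM over the 6 libraries and were tested, 18 of them had a mean of at least 10, and 5 of at least 100: ITGB4, ITGB6, ITGB1, ITGA3 and LAMB3. The other 12 stayed at or below 0.57 FPKM in every library. They were the laminin chains LAMA1, LAMA2, LAMB4 and LAMC3, the collagen receptors ITGA10 and ITGA11, ITGA4 and ITGA9, and the leukocyte subunits ITGAL, ITGAM, ITGAD and ITGB2. LAMB4 was listed at 0 in all 6 libraries.

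**Figure D1:**
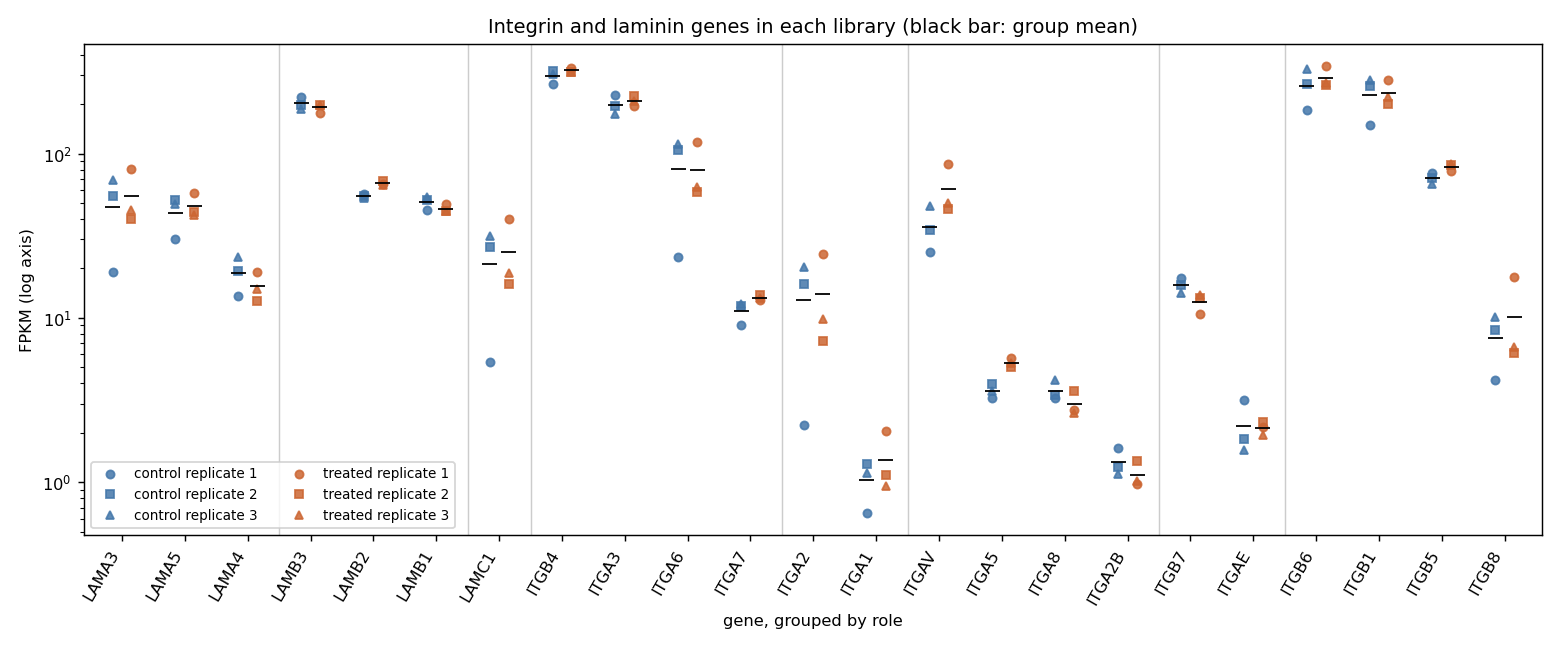
FPKM (log axis) of 23 of the 24 tested integrin and laminin genes in each library, grouped by role, with control libraries in blue, treated libraries in orange, replicates by symbol and group means as black bars. ITGA2, LAMC1 and ITGA6 spread widely within both groups, while LAMB3, ITGB4 and LAMB2 lie close together.

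No integrin or laminin gene differed between treated and control cells past the threshold (limma, Benjamini-Hochberg adjusted p under 0.05 over 11615 genes, n = 3 per group). Over all genes tested, 55 (0.474%) passed, 40 (0.344%) higher and 15 (0.129%) lower. With quantile normalization 62 (0.534%) passed, 35 (0.301%) higher and 27 (0.232%) lower, and none of the 24 was among them. Adjusted p-values of the 24 ran from 0.305 to 0.990 in limma. At an unadjusted p under 0.05, 2 genes stood higher in treated cells, ITGA5 and LAMB2, and 0 stood lower, against 7.42% and 3.62% of all genes tested. On the higher side were 18 of 24 genes (75%, against 61.9% of all genes tested), with a median log2 fold change of 0.17 beside 0.08 for all genes. Fold changes are treated over control on the scale of log2(FPKM + 0.5), with the standard error after ±, and this scale understates the change of low genes.

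Among laminin alpha chains, LAMA3, the alpha chain of the hemidesmosomal trimer, and LAMA5, the widespread alpha chain of adult basement membranes, were about equally abundant. LAMA3 stood at 18.9, 55.0 and 68.8 FPKM in control replicates 1 to 3 and at 80.5, 39.8 and 45.1 in treated replicates 1 to 3. Control replicate 1 was the lowest and treated replicate 1 the highest, the groups overlapped, and the log2 fold change was 0.33 ± 0.52 (limma adjusted p = 0.920). LAMA5 stood at 30.0, 52.0 and 49.0 FPKM in control and at 57.5, 44.0 and 42.0 in treated libraries, with the same libraries at the extremes (0.16 ± 0.24). LAMA4, a chain best known from vessel walls and mesenchyme, was lower, at 13.6, 19.2 and 23.5 FPKM in control and 19.0, 12.7 and 14.9 in treated libraries (-0.25 ± 0.24). Its mean was above that of every endothelial list member, of which PECAM1 and CDH5 reached at most 0.06 FPKM.

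Of the laminin chains, the beta chains varied least between libraries. LAMB3, which occurs in the LAMA3 trimer, was the most abundant laminin chain and stood at 221, 197 and 188 FPKM in control and 178, 197 and 198 in treated libraries, a log2 fold change of -0.08 ± 0.12. LAMB2, a beta chain of many adult basement membranes, was the steadiest laminin chain within groups: 56.9, 55.5 and 53.7 FPKM in control and 65.5, 67.7 and 64.6 in treated libraries. Every treated library lay above every control library, yet at 0.25 ± 0.10 the gene did not pass (limma adjusted p = 0.418). LAMB1, the partner chain in embryonic and many epithelial trimers, stood at 45.4, 52.4 and 54.7 FPKM in control and 49.6, 44.9 and 44.5 in treated libraries, with overlap (-0.13 ± 0.12). LAMB2 was 1 of 5 genes of the 24 whose groups did not overlap (20.8%, against 19.7% of all genes tested). With ITGB5, ITGA5 and ITGA7 it made 4 that were higher in treated libraries, which held for 13.0% of all genes tested. ITGB7 was the 1 that was lower, against 6.69% of all genes tested.

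LAMC1, the gamma chain of most laminins, was less abundant than LAMA3 and LAMA5 on average. It stood at 5.42, 26.9 and 31.7 FPKM in control and 40.1, 16.0 and 18.8 in treated libraries (0.44 ± 0.70). Control replicate 1 was thus far below every other library for LAMC1, while treated replicate 1 was above all of them.

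Of the laminin-binding integrin subunits, ITGB4 stood at 266, 320.1 and 303 FPKM in control and 332, 316 and 314 in treated libraries, with 0.12 ± 0.12 as its log2 fold change. ITGA3, which pairs with ITGB1 to bind LAMA3 and LAMA5 trimers, stood at 226, 196 and 173 FPKM in control and 196, 223 and 209 in treated libraries (0.08 ± 0.14). Both were high and even, with overlapping groups. ITGA6, the partner of ITGB4, behaved otherwise: it stood at 23.4, 105 and 114 FPKM in control and at 118, 58.0 and 62.5 in treated libraries. Control replicates 2 and 3 and treated replicate 1 formed the upper range, and control replicate 1 was the lowest by a wide margin. Its log2 fold change was 0.20 ± 0.64 (limma adjusted p = 0.955), and without control replicate 1 it was -0.54. ITGA7, a laminin receptor best known from muscle, stood at 9.05, 11.8 and 12.1 FPKM in control and 12.8, 13.8 and 13.3 in treated libraries, without overlap (0.27 ± 0.15, adjusted p = 0.643 in limma).

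The order of the libraries for ITGA6 crossed the groups. From control replicate 1 over treated replicates 2 and 3 and control replicates 2 and 3 to treated replicate 1, its FPKM increased at each step, which is exactly the reverse of the order of summed FPKM. The same order held for LAMA3, LAMC1, ITGA2 and ITGB8, so that it was seen in 5 of 24 genes (20.8%) and in 6.90% of all genes tested. Their FPKM ranged most, since they were those whose highest library was over 4 times the lowest, from 4.24 times for ITGB8 to 11.1 times for ITGA2, a ratio that 11.1% of all genes tested exceeded. In contrast, 6 genes stayed under 1.4 times between the extreme libraries: ITGB4, LAMB1, LAMB2, LAMB3, ITGA3 and ITGB5. CD151, the tetraspanin that associates with ITGA3 and ITGA6, ran the other way, exactly in the order of summed FPKM, with 829, 554 and 516 FPKM in control and 498, 602 and 598 in treated libraries. CD63, another tetraspanin, had that order too, which 4.37% of all genes tested shared. What set this order was not tested.

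**Figure D2:**
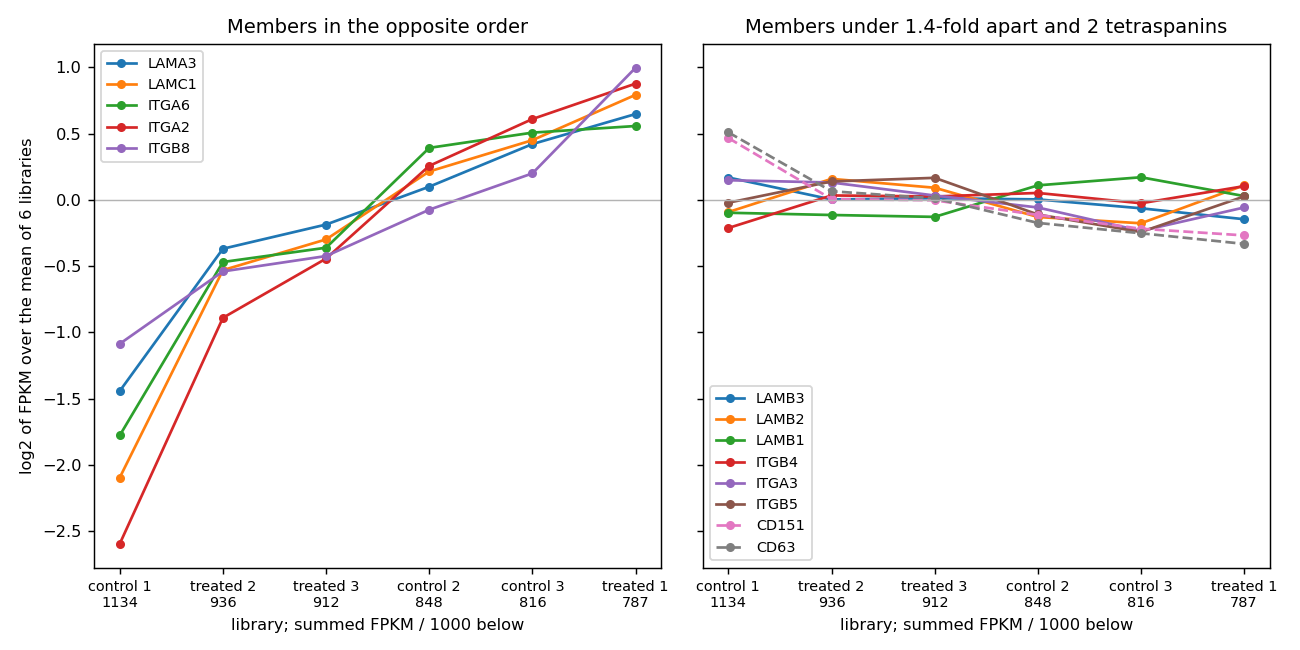
Log2 of FPKM over each gene's mean of 6 libraries, with libraries arranged from the highest to the lowest summed FPKM (divided by 1000, below each name). The left panel shows the 5 genes in the opposite order, with ITGA2 and LAMC1 dropping furthest in control replicate 1, and the right panel shows the 6 evenest genes with CD151 and CD63 as dashed lines.

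Collagen-binding subunits were represented by ITGA2, the main collagen receptor of epithelia. It stood at 2.22, 16.0 and 20.5 FPKM in control and at 24.6, 7.24 and 9.87 in treated libraries, with the widest fold range of the 24 (0.37 ± 0.84). Without control replicate 1 its log2 fold change was -0.56. ITGA1, which lies beside ITGA2 in the assembly of the RefSeq gene table with 1 annotated gene between them, was near the minimum for testing, at 0.65 to 1.29 FPKM in control and 0.95 to 2.04 in treated libraries (0.27 ± 0.33).

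Subunits that bind fibronectin, vitronectin and latent TGF-beta through the RGD motif stood on both sides of 0, with 2 of 4 alpha subunits higher and 2 lower. ITGAV, an alpha subunit that pairs with ITGB5, ITGB6 and ITGB8 among others, stood at 25.0, 34.4 and 47.9 FPKM in control and 86.3, 45.7 and 50.2 in treated libraries. Treated replicate 1 was far above the rest, and control replicate 3 reached above treated replicate 2, so the groups overlapped. With 0.75 ± 0.32 ITGAV had the highest log2 fold change of the 24 but did not pass (limma adjusted p = 0.475), and without treated replicate 1 it stood at 0.47. ITGA5, the fibronectin receptor subunit, was low but evenly split by group, at 3.25, 3.98 and 3.60 FPKM in control and 5.69, 5.01 and 5.33 in treated libraries. All treated libraries lay above all control libraries, and its log2 fold change of 0.51 ± 0.16 came with the lowest adjusted p of the 24 in limma (0.305). ITGA8, a nephronectin receptor subunit (-0.23 ± 0.20), and ITGA2B, the platelet subunit (-0.18 ± 0.24), stood between 0.98 and 4.17 FPKM in all libraries, and the platelet markers GP9, GP1BA and PPBP reached at most 0.18.

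The beta subunits that pair with ITGAV differed in level by over an order of magnitude. ITGB6, a beta subunit largely confined to epithelia and known for activating latent TGF-beta, stood at 184, 265 and 328 FPKM in control and 340.0, 260.1 and 270.0 in treated libraries, second only to ITGB4 (0.19 ± 0.24). ITGB5, a vitronectin receptor subunit, stood at 75.8, 71.2 and 65.0 FPKM in control and 78.3, 84.7 and 86.3 in treated libraries, so that the treated group was higher without overlap (0.23 ± 0.11, limma adjusted p = 0.544). ITGB8, which also pairs only with ITGAV, stood at 4.17, 8.41 and 10.2 FPKM in control and 17.7, 6.09 and 6.60 in treated libraries (0.31 ± 0.48). ITGB1, the common partner of most alpha subunits, stood at 148, 257 and 280.2 FPKM in control and 279.9, 199 and 221 in treated libraries. Its lowest library was control replicate 1 and its groups overlapped widely (0.07 ± 0.27).

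Of the subunits best known from leukocytes, ITGB7 was the 1 clearly present, at 17.6, 15.8 and 14.1 FPKM in control and 10.5, 13.2 and 13.8 in treated libraries. Every treated library lay below every control library, and at -0.33 ± 0.16 ITGB7 had the lowest log2 fold change of the 24 without passing (limma adjusted p = 0.542). Its alpha partners were low: ITGAE stood at 1.56 to 3.16 FPKM over all libraries (0.02 ± 0.27), and ITGA4 reached at most 0.01. Leukocyte markers were mostly absent, with PTPRC at no more than 0.03 and CD3E at no more than 0.05 FPKM, TYROBP listed at 0 in all libraries and 8 of 10 members under 1 FPKM throughout. CD14 and AIF1, the other 2, reached 8.03 and 7.93 FPKM. CD14 was higher in treated libraries without overlap (0.65 ± 0.18), against 13.0% of all genes tested, while AIF1 overlapped (-0.21 ± 0.44). The leukocyte list summed to 10.5 to 12.5 FPKM in control and 10.4 to 15.1 in treated libraries.

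Because ratios within a library do not move with the scale of that library, the make-up of 4 families was also compared. Of the summed alpha subunit FPKM, ITGA3 held 75.9%, 52.2% and 45.6% in the controls and 43.4%, 61.8% and 58.5% in the treated libraries, by replicate number. ITGA6 held 7.86% in control replicate 1 and between 16.0% and 30.0% in the other 5 libraries. LAMB2 held 18.0% ± 0.316 (SD, n = 3) of the laminin beta chains in control and 21.8% ± 0.679 in treated libraries, its share being higher in all 3 treated libraries, while LAMB3 held 60.7% to 68.4% throughout.

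Chains of the hemidesmosomal trimer were then set against those of other trimers, and the integrin subunit ITGB4 against ITGB1, as log2 ratios per library. LAMA3 to LAMA5 had a mean of -0.03 ± 0.58 (SD, n = 3) in control and 0.15 ± 0.32 in treated libraries (exact permutation test, 2-sided, p = 0.70). The differences, treated minus control, were 0.05 for LAMB3 to LAMB1 and 0.05 for ITGB4 to ITGB1, each with an exact permutation p = 0.90. With 3 libraries against 3 no p below 0.10 is possible, and with 4 ratios adjustment could only increase these values. Without control replicate 1 the LAMA3 to LAMA5 difference was -0.14, on the other side of 0.

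**Figure D3:**
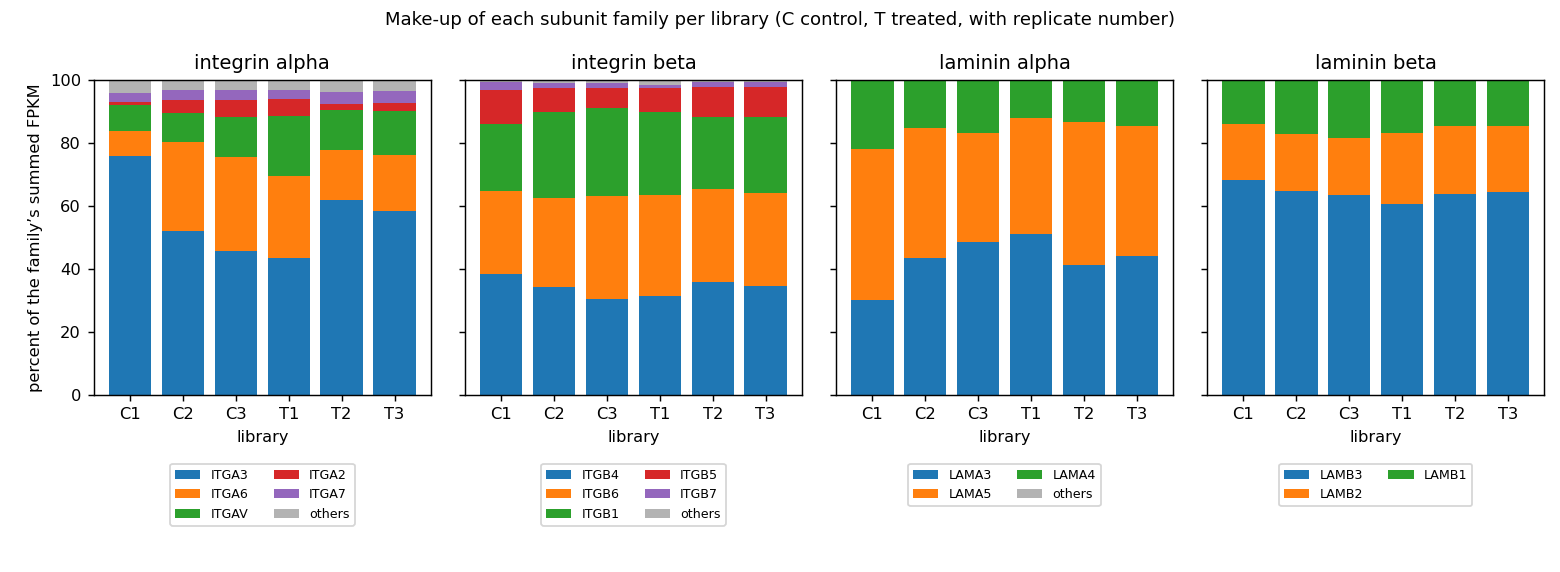
Share of each gene, in percent of the summed FPKM of its subunit family (integrin alpha, integrin beta, laminin alpha and laminin beta), for the 6 libraries (C control, T treated, with the replicate number). ITGA6 takes its smallest share in control replicate 1, and LAMB2 takes a higher share of the laminin beta chains in the 3 treated libraries (21.0% to 22.4%) than in the controls (17.6% to 18.2%).

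The direction of several genes rested on replicate 1 of either group. Without control replicate 1, 9 of the 24 log2 fold changes changed sign, among them those of ITGA6, ITGA2, LAMC1, LAMA3, ITGB1, LAMA5, ITGB8 and ITGB6, and the median over the 24 was -0.05. None of the 24 passed then, against 205 (1.76%) of all genes tested. Without treated replicate 1, 5 changed sign. In every alternative run, 18 for most genes and 17 for ITGA5, ITGA8 and ITGA2B, which a minimum of 5 FPKM removed, 6 genes stayed on the higher side and 5 on the lower side. The 6 were ITGB4, ITGB5, LAMB2, ITGAV, ITGA7 and ITGA5, and the 5 were LAMB1, LAMA4, ITGB7, ITGA8 and ITGA2B. Alternatives that changed only the minimum FPKM, the variance estimate or the replicate block leave a log2 fold change as it is. Those runs could not turn a sign and do not bear on direction. With the log2 of summed FPKM as a covariate, 5 of the 24 passed (20.8%, against 18.0% of all genes tested). ITGAV, ITGA5, LAMB2 and ITGB5 were then higher (11.7% of all genes tested were) and LAMA4 lower (6.27%), with log2 fold changes of 0.59, 0.48, 0.26, 0.26 and -0.37 and limma adjusted p-values between 0.020 and 0.038.

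With replicate 1 of both groups left out, a choice made after the data were seen, 10 of the 24 passed (41.7%, against 29.3% of all genes tested). ITGA2 (-1.06), ITGA6 (-0.86), LAMC1 (-0.73), LAMA4 (-0.61), LAMA3 (-0.53), ITGB8 (-0.51), ITGB1 (-0.35) and LAMB1 (-0.26) were lower, and ITGB5 (0.33) and LAMB2 (0.28) higher. Of all genes tested, 13.9% were lower and 15.4% higher. In the 4 libraries left, both control libraries had a lower summed FPKM than both treated libraries. Group and summed FPKM cannot be told apart there. ITGB5 and LAMB2 were the genes that passed as higher both here and with the covariate, and LAMA4 passed as lower in both. With all 6 libraries LAMA4 stood at -0.25, and this was -0.07 without control replicate 3 and -0.12 without treated replicate 2.

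**Figure D4:**
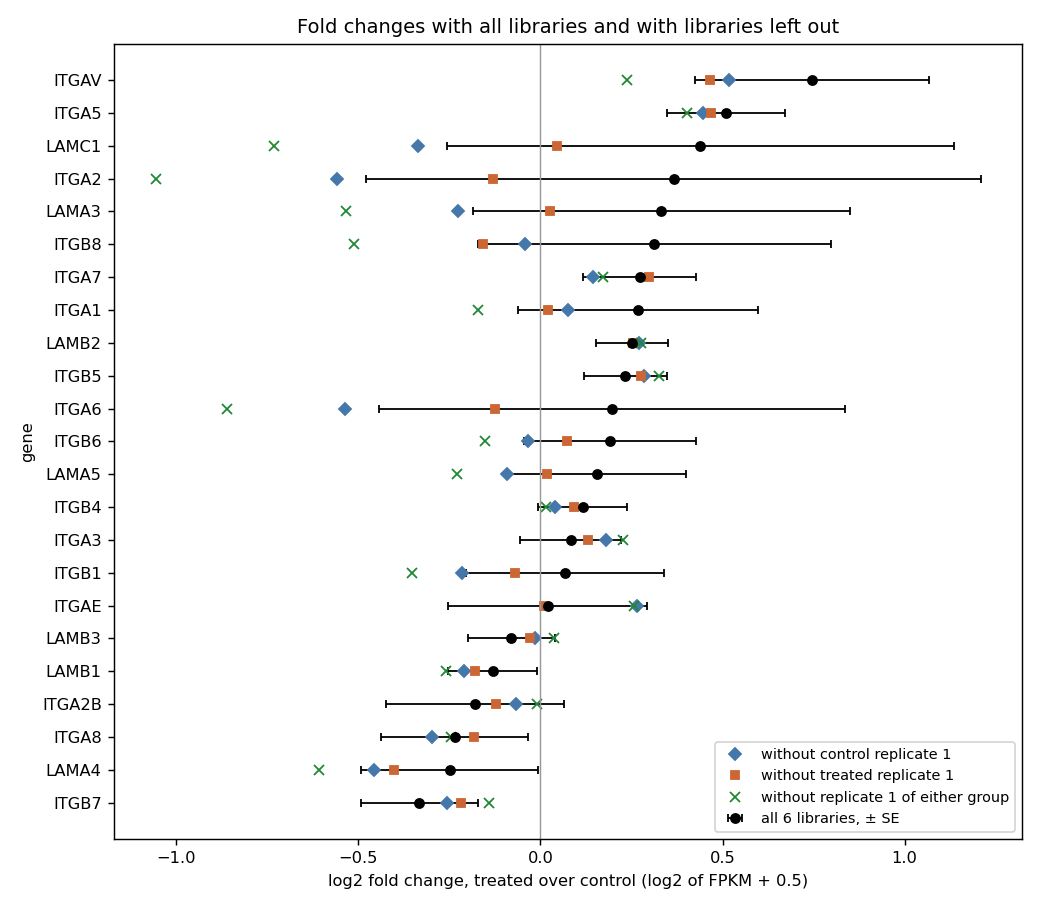
Log2 fold change, treated over control, of 23 of the 24 genes with all 6 libraries (black, ± SE), without control replicate 1 (blue), without treated replicate 1 (orange) and without replicate 1 of either group (green). ITGA6, ITGA2, LAMC1 and LAMA3 move from above to below 0, while ITGA5, LAMB2 and ITGB5 stay on the higher side.

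The partners of integrins and laminins were described from 5 lists, with 122 rows found and 100 tested. None of the 100 passed (limma, adjusted over all genes), and the median log2 fold change of the 100 was 0.07. At an unadjusted p under 0.05 in limma were 16, against 11.0% of all genes tested. Of these, 12 were higher and 4 lower, against 7.42% and 3.62% of all genes tested. Of the integrin activators and adaptors, 14 of 29 stood higher and 15 lower, with a median of -0.02 that was -0.20 without control replicate 1. TGFB1I1, the paxillin relative Hic-5, stood at 90.2, 58.8 and 54.9 FPKM in control and 31.8, 39.7 and 39.0 in treated libraries, all of them below the controls (-0.85 ± 0.22, limma adjusted p = 0.195). FLNC, a filamin, stood at 0.84 ± 0.24, TNS4, a tensin, at 0.51 ± 0.17, and FERMT1, the epithelial kindlin that activates integrins, at -0.44 ± 0.20.

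In adhesion signalling, the median was 0.11, or -0.13 without control replicate 1, and 16 of 25 stood higher, among them CAV1, the coat protein of caveolae, at 0.69 ± 0.23, and the docking protein NEDD9 at 0.48 ± 0.16, while the GTPase gene RAC1 stood at -0.36 ± 0.14. The hemidesmosome and tetraspanin list had 7 of 9 on the lower side and log2 fold changes from -0.21 (CD82) to 0.27 (DST, a plakin that links ITGB4 to keratin). Its median of -0.11 turned to 0.12 without control replicate 1, 0.01 without treated replicate 1 and 0.03 with summed FPKM as a covariate, and 3 of the 9 genes had exactly the library order of summed FPKM.

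Basement membrane components and other laminin receptors stood higher in 15 of 22. COL18A1, a collagen of epithelial basement membranes, stood at 45.2, 53.6 and 57.6 FPKM in control and 89.0, 80.3 and 80.3 in treated libraries, without overlap (0.68 ± 0.13, limma adjusted p = 0.105). COL7A1, the anchoring fibril collagen, and MCAM, a receptor for LAMA4, were low, with log2 fold changes of 0.99 ± 0.23 and 1.25 ± 0.24. The 7 on the lower side included COL15A1, a low collagen gene, at -0.49 ± 0.24, CD44 at -0.19 ± 0.12 and DAG1, the dystroglycan gene, at -0.11 ± 0.12.

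Of the other integrin ligands, 11 of 15 stood on the higher side, with a median log2 fold change of 0.38 that was 0.07 without control replicate 1. SPP1, osteopontin, an ITGAV ligand secreted by epithelia, stood at 5734, 6947 and 7164 FPKM in control and at 3821, 3755 and 3843 in treated libraries. The groups did not overlap, yet at -0.79 ± 0.20 it did not pass (limma adjusted p = 0.184). CTGF and CYR61, matricellular ligands, stood at 0.78 ± 0.15 and 0.65 ± 0.21, FBLN5, a fibulin, at 0.96 ± 0.17 (limma adjusted p = 0.0933, the lowest of the 100), and TGFBI at -0.88 ± 0.17. With summed FPKM as a covariate, 28 of the 100 passed, 17 higher and 11 lower, against 18.0%, 11.7% and 6.27% of all genes tested, among them COL18A1, MCAM, CTGF and FBLN5 higher and SPP1, TGFBI and TGFB1I1 lower.

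**Figure D5:**
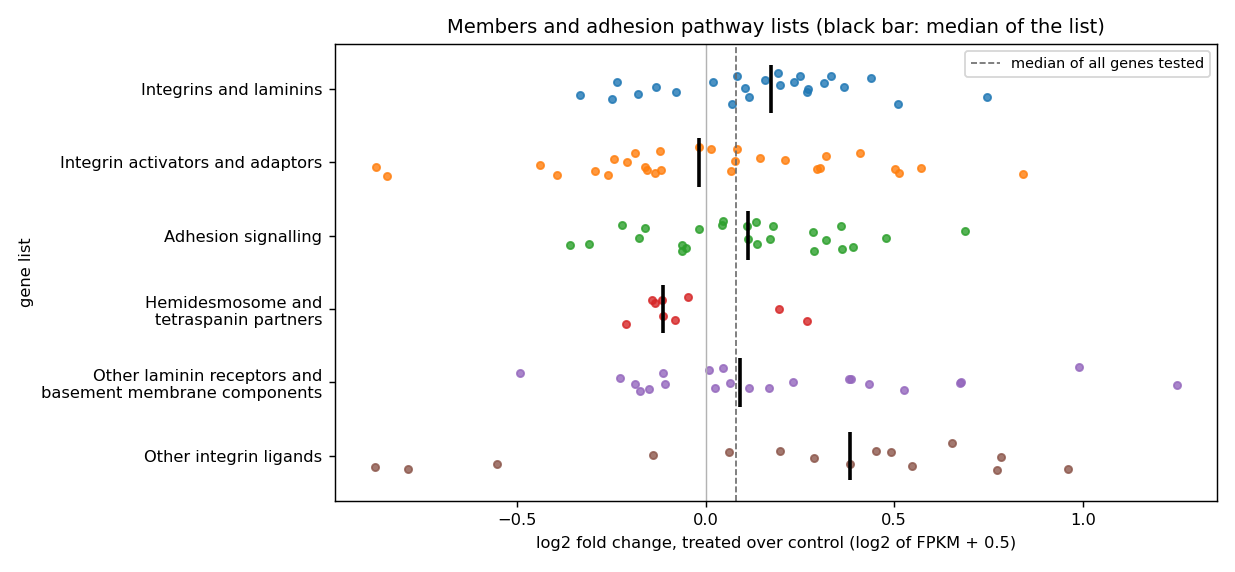
Log2 fold change, treated over control, of each tested integrin and laminin gene and of the tested members of 5 adhesion lists, with the list median as a black bar and the median of all genes tested as a dashed line. With all 6 libraries the median of the ligand list (0.38) lies highest and that of the hemidesmosome and tetraspanin list (-0.11) lowest, but without control replicate 1, not plotted, they were 0.07 and 0.12.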

How the data were processed

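RNA was measured by poly(A)-selected, paired-end RNA-seq on an Illumina HiSeq instrument, per the labels' protocols. The deposited table holds FPKM for 24616 genes, with 1 column per library and 2 decimals. The submitters' processing notes name the build ARS-UCD1.2 and DESeq2, with no role. Aligner, counting tool, annotation and strand handling were not given in the sources used here, so shared or antisense reads cannot be told apart, and no coordinates are given. The treated columns are named for acetate and replicate number and were matched to the only titles with acetate.

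Values were taken as log2(FPKM + 0.5), genes averaging 1 FPKM or more were kept, and groups were compared with limma 3.58.1 in R 4.3.3 (mean-variance trend, 2-sided, Benjamini-Hochberg over 11615 genes, threshold 0.05), after a test on simulated data. Tables and plots used matplotlib 3.10.9, numpy 2.4.6 and pandas 2.3.3 under Python 3.11.15. Of the rows, 18535 carried a symbol in the table and 124 gained one from RefSeq's ARS-UCD2.0 gene table. Ratios were compared by exact permutation. The members and lists were chosen with earlier results of these data known. Values of 1 tested member, and a ratio that uses it, are not reported here, though the counts and medians include it. Every other member could be named, and of each pathway list every gene past the threshold and up to 3 genes with the smallest p per direction. Markers of other cell types were named by their range. Same-numbered libraries of the groups did not deviate together, which gives no sign that the numbers pair them but cannot exclude it. They were treated as unpaired in the main fit.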

Additional observations from a re-analysis of the deposited data

How the results depend on the processing

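Depth is unknown and each group has 3 libraries, so the reads behind low genes such as ITGA1 and ITGA2B are unknown. Their standard errors, 0.33 and 0.24, were not the largest. The change that could be resolved differed by gene, since standard errors ran from 0.10 for LAMB2 to 0.84 for ITGA2. Small changes could not be resolved where control replicate 1 lay far from the other controls, as for ITGA2. Of 18 alternatives, 17 were planned and leaving out replicate 1 of either group was chosen after seeing the data. Over all genes tested, 55 calls became 33 with a minimum of 5 FPKM, 23 after rescaling to the same sum, 2089 with summed FPKM as a covariate, and 0 with a replicate block (584 at an unadjusted p under 0.05, limma). Same-numbered libraries did not deviate together (correlations of deviations -0.729, -0.367 and -0.376), which gives no sign of pairing but cannot exclude it. The block called 0 of the 24 and 0 of the 100 pathway genes. With libraries left out, the calls over all genes ranged from 0 to 3404, those among the 24 from 0 to 10 and those among pathway genes from 0 to 42. Without control replicate 1 there were 205 calls over all genes, without control replicate 3 there was 1, and without control replicate 2 or any 1 treated library 0 (731 to 921 at an unadjusted p under 0.05, limma). The covariate gave 5 and 28 calls among the 24 and the pathway genes, and a variance estimate with no trend gave 1 pathway gene. The cause of these shifts was not tested.

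Some log2 fold changes passed to the other side of 0. With the covariate they were -0.072 for ITGB1, -0.15 for ITGA6, -0.10 for ITGA2 and 0.0067 for CD63. With quantile normalization they were -0.17 for ITGAE, -0.030 for ITGA1, 0.020 for CD63 and 0.018 for DAG1. With trimmed-mean factors they were -0.055 for ITGAE, -0.017 for ITGB1 and -0.0021 for ITGA3. With libraries left out, the ranges were -0.86 to 0.59 for ITGA6, -1.06 to 0.91 for ITGA2, -0.73 to 0.88 for LAMC1, -0.53 to 0.69 for LAMA3, -0.51 to 0.57 for ITGB8, -0.35 to 0.24 for ITGB1, -0.23 to 0.30 for LAMA5, -0.15 to 0.38 for ITGB6, -0.15 to 0.27 for ITGAE, -0.17 to 0.43 for ITGA1, -0.0098 to 0.23 for ITGA3 and -0.13 to 0.038 for LAMB3. Those of partners were -0.30 to 0.46 for DST, -0.26 to 0.17 for CD151, -0.36 to 0.13 for CD82 and -0.25 to 0.25 for CD63. Log2 ratios ranged from -0.30 to 0.43 for LAMA3 to LAMA5, -0.053 to 0.30 for LAMB3 to LAMB1 and -0.11 to 0.37 for ITGB4 to ITGB1.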
